A study of Mus musculus with 18 samples.

Results

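The interaction of fluvastatin with Prdx1 knockdown was measured in mouse primary Leydig cells as a difference of differences. For each gene, the log2 change with fluvastatin in siprdx1 cells was set against the log2 change with fluvastatin in siNC cells. A positive interaction means that the fluvastatin effect was more positive, or less negative, with the knockdown. Of 55487 genes in the deposited count table, 16432 passed the filter on low counts and were tested, and the comparison used 12 of the 18 libraries.

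Peroxiredoxin 1, the product of Prdx1, is a thiol peroxidase that reduces hydrogen peroxide (H2O2) and is re-reduced by thioredoxin. Fluvastatin (FV) is a statin, a class of drugs that block the mevalonate pathway, the source of cholesterol and of the isoprenoids that anchor many proteins in membranes. Leydig cells are the androgen-producing cells between the seminiferous tubules of the testis. The title of the series states that fluvastatin acts through peroxiredoxin 1, and the question of this comparison is how far the transcriptional response to fluvastatin depended on Prdx1.

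Gene coordinates are those of GENCODE M21 (GRCm38, which mm10 also names). All 4 groups were transfected with siRNA, either a control (siNC) or one against Prdx1 (siprdx1), and were exposed to 200 µM H2O2 for 30 min. The groups called siNC+H2O2 and siprdx1+H2O2 then had 0.1% DMSO for 6 h. The groups called siNC+H2O2+FV and siprdx1+H2O2+FV had 5 µM fluvastatin for the same time. The labels mention no DMSO where fluvastatin was given, so drug and vehicle cannot be told apart, and no group had fluvastatin without H2O2. Each group held 3 libraries that the labels call biological replicates without naming separate animals, so p-values measure only the spread between these libraries. The siprdx1 groups are set against siNC alone, so loss of Prdx1 and any other effect of the siRNA cannot be told apart. The siNC and siprdx1 groups without H2O2 are given as the background level.

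The 12 libraries held 16773112 to 23898435 counts. The biological coefficient of variation over all genes was 7.01% in the fit of all 18 libraries. Prdx1 measured 1558 to 1689.6 CPM (counts scaled to library size with TMM factors) in siNC+H2O2 and 485 to 576 CPM in siprdx1+H2O2. After fluvastatin it measured 1459.5 to 1528 CPM in siNC cells and 519 to 559.9 CPM in siprdx1 cells, so the arms did not overlap in either treatment. The interaction for Prdx1 itself was 0.17 on the log2 scale (95% interval -0.02 to 0.35) and did not pass (edgeR adjusted p = 0.439). Of the Leydig markers, Star, Cyp11a1 (619 to 802 CPM), Hsd3b1 and Nr5a1 (65.3 to 103 CPM) were expressed, and Lhcgr held 2.8 to 5.86 CPM. Reads given to Insl3 may be those of Jak3, which it overlaps on the same strand. Cyp17a1 and Hsd17b3 reached at most 0.106 and 0.184 CPM. Macrophage markers were present throughout, with Lyz2 between 5342 and 6869.9 CPM. Stromal markers were present as well, with Dcn between 2662 and 3761 CPM and Col1a1 between 3051 and 4655 CPM. In such bulk RNA, fewer cells of a type and less RNA per cell cannot be told apart.

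The fluvastatin effects of the arms were positively correlated across genes. The genes that passed the interaction were led by immediate early and interferon-stimulated genes. A gene that did not pass is not shown to respond alike in both arms. At a Benjamini-Hochberg adjusted p below 0.05 in edgeR's quasi-likelihood test, 107 genes passed the interaction, 0.651% of those tested. The effect was more positive with knockdown for 76 genes (0.463%) and more negative for 31 (0.189%). Without adjustment, 2112 genes had p below 0.05. With offsets for GC content and transcript length the split was 200 and 137 genes. For comparison, the fluvastatin effect averaged over the arms passed for 5535 genes (33.7%; 17.5% higher and 16.2% lower), the effect in siNC alone for 4090 (24.9%) and that in siprdx1 alone for 3876 (23.6%). The number of genes that passed the interaction depended on single libraries, at 49 higher genes without siprdx1+H2O2+FV replicate 1.

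Among the 76 higher genes the median interaction was 0.71 on the log2 scale, and 20 genes reached at least 1. Among the 31 lower genes the median was -0.40, and 0 reached a size of 1. The median standard error of the interaction over all genes tested was 0.148. In each of the 107 genes the 9 differences between a fluvastatin and an H2O2 library of siprdx1 did not overlap the 9 differences of siNC. Over all genes tested, 998 (6.07%) had differences that did not overlap. The 107 genes were chosen by a test on these same libraries, so their separation is a description and adds no support. The 9 differences of an arm reuse the same libraries and are not independent.

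The arms share no library in this comparison. Across the 16432 genes, the fluvastatin effects in siNC and siprdx1 had a Pearson correlation of 0.717 and a Spearman correlation of 0.57, given as a description because genes are not independent replicates. For the 664 genes that passed the averaged effect with a size of at least 1, the correlation was 0.897 and the orthogonal slope of siprdx1 on siNC was 1.056. Of these 664 genes 28 passed the interaction (4.22%), beside 0.651% of all genes tested. Conversely, 31 of the 107 genes did not pass the averaged fluvastatin effect.

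**Figure D1:**
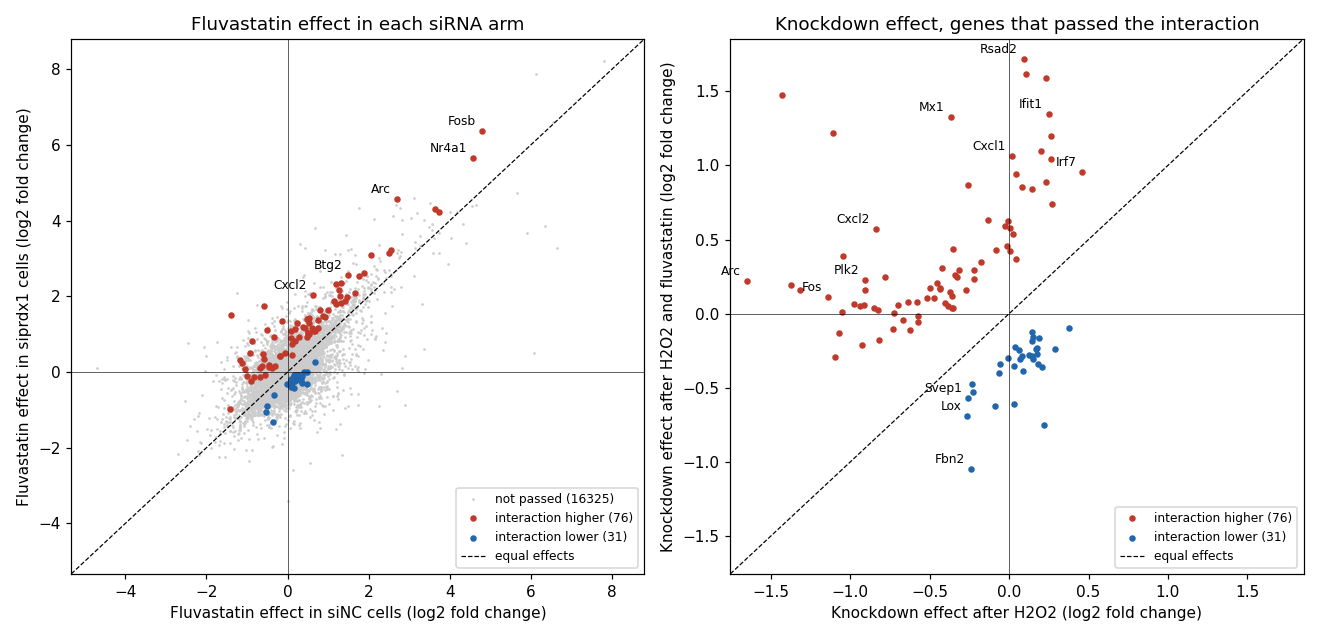
The left panel plots the log2 fluvastatin effect in siprdx1 cells against that in siNC cells for 16432 genes, and the right panel plots the log2 knockdown effect after fluvastatin against that after H2O2 for the 107 genes that passed. Red points are the 76 genes above the dashed line of equal effects and blue points the 31 below it; on the right, one arm of red points spreads to the left of 0 and another spreads upward.

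Egr3 and Thbs1 had large fluvastatin responses in both arms and did not pass the interaction. That does not show equal responses, and both 95% intervals given below were positive throughout. Egr3, a zinc finger transcription factor of the early growth response family, gave 458, 440.3 and 448 CPM with fluvastatin in siNC cells and 525, 543 and 544 CPM in siprdx1 cells. The corresponding H2O2 libraries held 1.57, 2.17 and 2.2 CPM and 1.8, 1.83 and 1.75 CPM. Fluvastatin thus raised Egr3 by 7.80 and 8.22 on the log2 scale, and the interaction of 0.42 (95% interval 0.08 to 0.76) did not pass (edgeR adjusted p = 0.306). Thbs1, which encodes the matrix protein thrombospondin 1, rose by 2.23 in siNC and 2.46 in siprdx1. Its interaction of 0.23 (95% interval 0.11 to 0.35) also did not pass (edgeR adjusted p = 0.0647). Of the 10 genes with the largest averaged rise, Fosb and Nr4a1 passed the interaction. None of the 10 with the largest averaged fall passed it.

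Immediate early genes, which are transcribed within minutes of a stimulus without new protein synthesis, were 1 of the 2 lists with the most genes past the threshold. Of 24 tested members 13 were higher (54.2%) and 0 lower, where 0.463% of all genes were higher. A positive interaction was measured for 23 members, and for 8456 of all 16432 genes. The median interaction of the list was 0.60, beside 0.01 over all genes tested. The 13 were Btg2, Arc, Fos, Fosb, Nr4a1, Atf3, Egr1, Jun, Ier2, Egr2, Zfp36, Ier5 and Junb. The wider gap between the arms was in the H2O2 groups, with a median knockdown effect of -0.40 there and 0.15 after fluvastatin: 13 members were lower with knockdown after H2O2, where 1.83% of all genes fell, and 0 fell and 3 rose after fluvastatin, where 2.35% fell and 1.62% rose. The summed level of the list was 3308 to 3459 CPM in siNC+H2O2 and 2157 to 2363 CPM in siprdx1+H2O2. After fluvastatin it was 8847 to 9631 CPM in siNC cells and 9681 to 10278 CPM in siprdx1 cells. The ranges of the arms did not overlap in either treatment, and their order turned. Summed macrophage markers were also lower with knockdown after H2O2, at 10477 to 11108 CPM in siNC and 9060.2 to 9222 CPM in siprdx1, and their part in the result was not tested.

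Btg2 (chr1:134075170-134079120), an antiproliferative gene that p53 also induces, had the smallest p. Its level was 314, 317 and 309 CPM in siNC+H2O2 and 877, 895 and 891 CPM with fluvastatin. In siprdx1 cells the H2O2 libraries held 147, 149.8 and 156 CPM and the fluvastatin libraries 887, 903 and 890.2 CPM. The arms were apart by a wide gap after H2O2 and overlapped after fluvastatin. The interaction was 1.06 ± 0.06 (SE, n = 3 per group; edgeR adjusted p = 1.47e-10). Without H2O2, Btg2 held 46.5 to 47.4 CPM in the siNC libraries and 42.2 to 42.5 CPM in those of siprdx1.

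Arc (chr15:74669083-74672570), a cytoskeleton-associated immediate early gene best known in neurons, had the largest interaction on the list, at 1.87 ± 0.11 (edgeR adjusted p = 7.43e-10). It measured 65.4, 61.7 and 69.4 CPM in siNC+H2O2 against 19.3, 21.5 and 21.7 CPM in siprdx1+H2O2. With fluvastatin the values were 394, 425 and 461 CPM and 496, 525 and 473 CPM. All siprdx1 libraries were below the siNC libraries after H2O2 and above them after fluvastatin.

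Fos was the one immediate early gene that fluvastatin moved in opposite directions, falling by 0.32 in siNC (edgeR adjusted p = 0.000507) and rising by 0.93 in siprdx1 (edgeR adjusted p = 9.38e-11). Fos (chr12:85473890-85477273) encodes a subunit of the AP-1 transcription factor. The H2O2 libraries held 261, 246 and 259.7 CPM for siNC against 111, 120.3 and 117 CPM for siprdx1, and the fluvastatin libraries 193, 209.9 and 211 CPM and 223, 221 and 218 CPM. Fluvastatin thus left Fos below its H2O2 level in every siNC library and above it in every siprdx1 library. Its partner Jun, 344, 338 and 347 CPM in siNC+H2O2, went to 373, 382 and 409 CPM with fluvastatin and did not pass in siNC. In siprdx1 cells Jun went from 168, 188 and 191 CPM to 397, 412 and 402 CPM, and the interaction was 0.97 ± 0.10 (edgeR adjusted p = 1.24e-06).

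Fosb, another AP-1 subunit, and the orphan nuclear receptor Nr4a1 rose in both arms by much more than the arms differed. Fosb went from 13.7, 14.9 and 15.7 CPM to 375, 430.2 and 437 CPM in siNC. In siprdx1 it went from 5.19, 5.86 and 5.99 CPM to 461, 495 and 462 CPM. The starting levels did not overlap, and the interaction was 1.57 ± 0.11 (edgeR adjusted p = 1.04e-08). For Nr4a1 the fluvastatin effect was 4.59 in siNC and 5.66 in siprdx1. Egr1 showed the same order, with 686, 654 and 685 CPM in siNC+H2O2 and 369, 403 and 373 CPM in siprdx1+H2O2. After fluvastatin its ranges of 1131 to 1247 CPM for siNC and 1118 to 1245 CPM for siprdx1 overlapped.

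**Figure D2:**
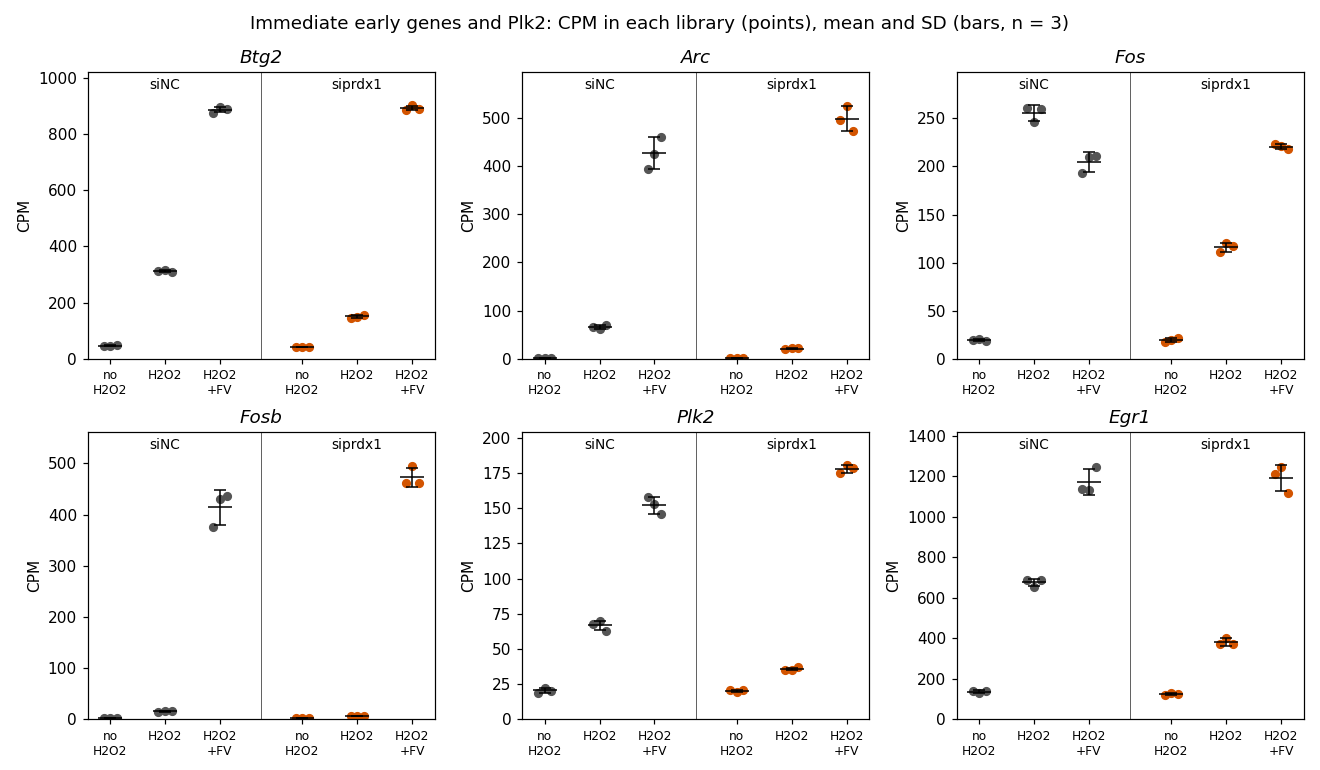
Each panel plots CPM per library for 1 gene (points), with the mean and SD of 3 libraries (bars), in grey for siNC and orange for siprdx1, without H2O2, after H2O2 and after H2O2 and fluvastatin. The orange points lie below the grey ones after H2O2 in all 6 genes, and after fluvastatin the arms overlap in Btg2, at 877 to 895 CPM and 887 to 903 CPM, and in Egr1.

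The 11 members that did not pass included Egr3, Nr4a3, Fosl1, Fosl2, Myc and Maff. Nr4a3, of the same receptor family as Nr4a1, rose by 6.55 in siNC and 6.62 in siprdx1, with an interaction of 0.07 (95% interval -0.40 to 0.54). Fosl1, an AP-1 subunit that overlaps the antisense gene Ccdc85b, rose by 4.18 and 4.22, with an interaction of 0.04 (95% interval -0.26 to 0.34). For Nr4a3 and Fosl1 the sign of the interaction turned without single libraries.

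Several genes outside the list shared this pattern of a lower H2O2 level with knockdown. Knockdown itself passed for 2.73% of all genes after H2O2 and for 3.97% after fluvastatin. In all, 41 of the 76 higher genes were lower with knockdown after H2O2 and did not pass for knockdown after fluvastatin, with median knockdown effects of -0.64 and 0.07. Plk2 (chr13:110395046-110400844), a polo-like kinase and p53 target, measured 67.5, 69.7 and 63 CPM in siNC+H2O2 and 35.2, 34.9 and 36.7 CPM in siprdx1+H2O2. With fluvastatin it reached 158, 153 and 146 CPM for siNC against 175, 180.5 and 179 CPM for siprdx1, so here the order of the arms turned. Its interaction was 1.13 ± 0.08 (edgeR adjusted p = 1.34e-08).

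Ppp1r10, a nuclear regulatory subunit of protein phosphatase 1, had an interaction of 1.05 ± 0.09 (edgeR adjusted p = 1.48e-07). The chaperone gene Dnajb1 had an interaction of 0.72 ± 0.07 (edgeR adjusted p = 2.33e-06). Rgs1, a regulator of G-protein signalling that is abundant in leukocytes, measured 46, 49.1 and 39.8 CPM in siNC+H2O2 and 42.8, 41.6 and 39 CPM with fluvastatin. In siprdx1 cells it went from 20.7, 14.4 and 19 CPM to 43.1, 41.7 and 53 CPM. The siNC groups overlapped and the siprdx1 groups did not, for an interaction of 1.47 ± 0.16 (edgeR adjusted p = 1.18e-05). The phosphatase Dusp1, which switches off MAP kinases, and the small GTPase Rhob also passed, at 0.48 and 0.52.

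The same H2O2 libraries also enter the interaction of H2O2 with knockdown, which set H2O2 against no H2O2 in each arm and passed for 40 genes (0.243%), 7 of them higher (0.0426%) and 33 lower (0.201%). Since the comparisons share libraries, their values are only set side by side. The H2O2 interaction was -1.15 for Fos, -1.66 for Fosb, -0.996 for Nr4a1 and -0.69 for Egr1, all past edgeR's threshold. For Ifit3 it was -0.02 and did not pass.

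Promoters of the higher genes were examined because the genes moved together. RefSeq lists a start for 57 of the 76 higher genes in GRCm38.p6, and 250 bases upstream of it were searched on both strands. The cyclic AMP response element TGACGTCA lay in 3 of the 57 (5.26%), namely Btg2, Plk2 and Dusp1, beside 1.62% of all 27025 listed genes. The CArG box, the site of serum response factor, lay in 2 of the 57 (3.51%), beside 1.4% of all. Of the 21 lower genes with a listed start, 1 held each motif (4.76%). Of the 10 higher immediate early genes with a listed start, Btg2 held the TGACGTCA element and Zfp36 the CArG box. Plk2 and Dusp1 are not on that list. The windows of Btg2 and Plk2, the 200 bases before the start, show where the TGACGTCA element lies, in capitals. That of Btg2 is chr1:134079156-134079355 on the minus strand and that of Plk2 is chr13:110394844-110395043 on the plus strand, both 5′ to 3′.
Btg2: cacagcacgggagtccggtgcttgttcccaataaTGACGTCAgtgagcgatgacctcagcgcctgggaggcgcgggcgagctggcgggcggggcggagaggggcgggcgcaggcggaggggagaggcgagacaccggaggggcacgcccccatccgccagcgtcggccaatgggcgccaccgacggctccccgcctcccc
Plk2: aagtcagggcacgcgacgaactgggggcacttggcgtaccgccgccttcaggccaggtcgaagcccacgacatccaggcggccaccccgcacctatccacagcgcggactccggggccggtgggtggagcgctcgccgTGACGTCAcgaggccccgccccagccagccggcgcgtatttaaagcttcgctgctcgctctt
The element begins 166 bases upstream of the start in Btg2 and 62 bases upstream in Plk2.

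Interferon-stimulated genes were the other list with 13 genes past the threshold. These genes are switched on when interferon receptors activate transcription factors that bind the interferon-stimulated response element in their promoters. Of 30 tested members 13 were higher (43.3%) and 0 lower, where 0.463% of all genes were higher. A positive interaction was measured for 29, and the median was 0.49. The sign alone does not mark this list. Cytosolic ribosomal proteins had 28 of 30 positive, with 0 past the threshold and a median of 0.18. The direction of the fluvastatin effect differed between the arms. In siNC 24 members fell and 1 rose, with a median of -0.48, where 11.3% of all genes fell and 13.5% rose. In siprdx1 9 rose and 3 fell, with a median of 0.09, where 12.6% of all genes rose and 11% fell. Here the wider gap between the arms was after fluvastatin, and a smaller one was present after H2O2 already. Knockdown was higher for 24 of the 30 after fluvastatin (median 0.79), where 1.62% of all genes rose. After H2O2 it was higher for 5 (median 0.17), where 0.901% of all genes rose.

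The summed level of the list was 872 to 890.1 CPM in siNC+H2O2 and 665 to 673 CPM in siNC+H2O2+FV. In siprdx1 cells it was 979 to 1022 CPM after H2O2 and 1017 to 1032 CPM after fluvastatin. After H2O2 alone the siprdx1 level was thus above that of siNC already. Without H2O2 it was 823 to 849.7 CPM in siNC and 859.7 to 892 CPM in siprdx1. With fluvastatin the summed level fell clear of its H2O2 range in siNC and overlapped it in siprdx1. Macrophage markers moved in the same direction to a smaller extent. Their interaction was positive for 19 of 20 tested members, with a median of 0.24. By edgeR 0 of the 20 passed (13 at an unadjusted p below 0.05), by limma voom 1, and by DESeq2 9 of the 17 with an adjusted p. Their summed level went from 10477 to 11108 CPM down to 9260.3 to 9338 CPM with fluvastatin in siNC, and from 9060.2 to 9222 CPM up to 9432 to 9914 CPM in siprdx1. The part of macrophage content in the interferon result was not tested.

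Promoters of 4 members are shown because they hold the response element, searched as GAAA, any 2 bases and GAAA on both strands in 250 bases upstream of the RefSeq start. It lay in 6 of the 10 higher list members with a listed start (60%) and in 5 of 11 members that did not pass (45.5%), beside 3.04% of all 27025 listed genes. The element thus occurred in members that passed and in members that did not. The 200-base windows are chr19:34583329-34583528 (plus strand) for Ifit3, chr19:34640689-34640888 (plus) for Ifit1, chr12:26456453-26456652 (minus) for Rsad2 and chr4:156200819-156201018 (minus) for Isg15, in GRCm38.p6. Each is 5′ to 3′ with matches in capitals, and the 3 matches of Isg15 overlap each other.
Ifit3: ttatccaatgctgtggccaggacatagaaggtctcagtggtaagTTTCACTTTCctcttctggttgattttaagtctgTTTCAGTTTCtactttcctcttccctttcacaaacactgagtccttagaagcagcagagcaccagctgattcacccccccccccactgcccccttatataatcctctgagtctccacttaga
Ifit1: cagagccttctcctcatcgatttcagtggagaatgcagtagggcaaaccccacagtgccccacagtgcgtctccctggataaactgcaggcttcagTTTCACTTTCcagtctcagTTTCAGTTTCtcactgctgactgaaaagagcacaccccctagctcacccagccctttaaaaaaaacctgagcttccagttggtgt
Rsad2: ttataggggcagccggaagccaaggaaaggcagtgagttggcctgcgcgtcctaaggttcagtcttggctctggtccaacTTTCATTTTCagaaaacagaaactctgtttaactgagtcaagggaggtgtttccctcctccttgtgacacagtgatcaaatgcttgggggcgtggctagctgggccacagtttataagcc
Isg15: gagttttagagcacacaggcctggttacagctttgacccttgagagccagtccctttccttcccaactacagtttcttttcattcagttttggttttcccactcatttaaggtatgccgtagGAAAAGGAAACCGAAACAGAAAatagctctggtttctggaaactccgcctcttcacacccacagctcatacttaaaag

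Ifit3 (chr19:34583531-34588731), which encodes an antiviral protein with tetratricopeptide repeats, had the smallest p of the group. It fell from 36.4, 36 and 34.3 CPM to 16.8, 15.2 and 16.9 CPM with fluvastatin in siNC. In siprdx1 it rose from 44.9, 40.5 and 39.9 CPM to 48.7, 47.4 and 51.3 CPM. No pair of these groups overlapped, and the interaction was 1.36 ± 0.11 (edgeR adjusted p = 1.39e-07). Ifit3 and Ifit3b have transcripts 97.8% identical where they align, so the counting could have split reads between them. Both passed in the same direction.

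Rsad2 (chr12:26442746-26456452), the gene of the radical SAM enzyme viperin, measured 12.6, 14.8 and 11.1 CPM in siNC+H2O2 and 10, 9.01 and 7.89 CPM with fluvastatin. In siprdx1 cells it went from 16.1, 11 and 14.1 CPM to 30.1, 28.8 and 29.2 CPM. The H2O2 groups of the arms overlapped and the fluvastatin groups were well apart. Its interaction was 1.62 ± 0.17 (edgeR adjusted p = 4.07e-06), and the knockdown effect was 0.09 after H2O2 and 1.72 after fluvastatin. Ifit1 fell by 0.62 in siNC and rose by 0.47 in siprdx1, an interaction of 1.09 ± 0.13 (edgeR adjusted p = 2.61e-05).

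Isg15, a ubiquitin-like modifier, and Irf7, the transcription factor that amplifies type I interferon production, also passed. Isg15 measured 19.3, 16.9 and 18.6 CPM in siNC+H2O2 and 10, 12.9 and 13.5 CPM with fluvastatin, against 19, 21.2 and 25.3 CPM and then 27.3, 29 and 27.5 CPM in siprdx1. Reads of Isg15 may be shared with its near copy Gm9706 (95.2% identity). For Irf7 the order of the arms was present after H2O2 already, at 52.7, 50.6 and 53.7 CPM for siNC against 69.1, 74.2 and 72.8 CPM for siprdx1. Fluvastatin widened it to 40.4, 40.9 and 38.7 CPM against 79.3, 77.5 and 75.9 CPM, an interaction of 0.50 ± 0.08 (edgeR adjusted p = 0.00105).

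Mx1, a dynamin-like antiviral GTPase, had the largest interaction on the list at 1.69 ± 0.32 (edgeR adjusted p = 0.00956), from levels between 1.03 and 3.44 CPM. Cxcl10, a chemokine induced by interferon, differed from the others in rising with fluvastatin in both arms. It measured 6.86, 6.5 and 6.51 CPM in siNC+H2O2 and 10.4, 7.39 and 11 CPM with fluvastatin. In siprdx1 it went from 7.68, 7.06 and 8.11 CPM to 19.8, 20.5 and 21.4 CPM. The interaction was 0.90 ± 0.17 (edgeR adjusted p = 0.012). Ifit2 did not pass, at -0.02 (95% interval -0.28 to 0.24).

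**Figure D3:**
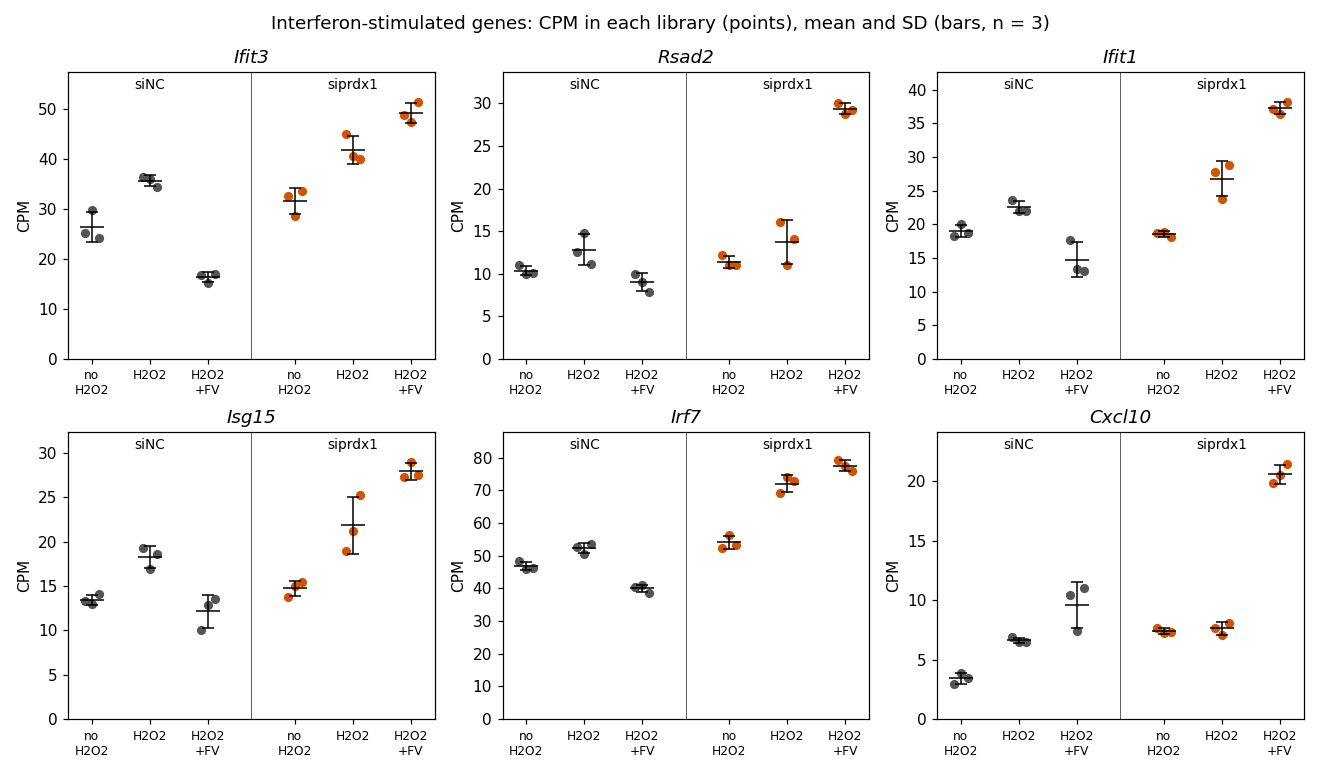
Each panel plots CPM per library for 1 interferon-stimulated gene (points), with the mean and SD of 3 libraries (bars), in grey for siNC and orange for siprdx1. With fluvastatin the grey points drop and the orange points rise in 4 of the 6 genes, Ifit3, Rsad2, Ifit1 and Isg15; Cxcl10 rises in both arms and Irf7 passed the fall in siNC alone.

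Leaving out siprdx1+H2O2 replicates 1 and 2, the libraries with the lowest and the highest slope of expression on GC content in that group, kept 1 library in that group, which was then assumed to vary like the other groups. In this smaller design 7 interferon members and 12 immediate early members passed. Isg15, Mx1 and Cxcl10 did not, with interactions of 0.72, 1.57 and 0.81. In DESeq2 only 14 of the 30 interferon members received an adjusted p, and 4 of those passed.

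Of NF-kappaB targets and inflammatory mediators, 7 of 23 tested members were higher (30.4%) and 0 lower, where 0.463% of all genes were higher. A positive interaction was measured for 19 of the 23, 12 had an unadjusted p below 0.05 by edgeR, and the median was 0.35. The 7 were Cxcl2, Cxcl1, Ccl7, Nfkbiz, Tnf, Ccl3 and Ccl2. Cxcl2, a neutrophil-attracting chemokine, measured 10.5, 11 and 11 CPM in siNC+H2O2 and 18.2, 16.6 and 15.3 CPM with fluvastatin. In siprdx1 it went from 5.84, 5.86 and 6.48 CPM to 24.8, 23.3 and 26.1 CPM. It was below siNC after H2O2 and above it after fluvastatin in every library, and the interaction was 1.41 ± 0.13 (edgeR adjusted p = 6.87e-07).

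The related chemokine Cxcl1 started at similar levels, 7.31, 8.51 and 7.08 CPM in siNC+H2O2 and 7.08, 8.39 and 7.62 CPM in siprdx1+H2O2. Fluvastatin took it to 18.4, 19.4 and 19.2 CPM in siNC and to 43, 37.1 and 39 CPM in siprdx1. The H2O2 groups overlapped and the fluvastatin groups did not, for an interaction of 1.04 ± 0.15 (edgeR adjusted p = 0.000489). Ccl7, a monocyte chemokine, and Nfkbiz, an inducible regulator of NF-kappaB, had interactions of 0.79 and 0.72. With 1 library left in siprdx1+H2O2, 4 members passed and Nfkbiz, at 0.63, did not. Tnf, the gene of tumour necrosis factor, did not pass with fluvastatin in siNC and rose by 0.74 in siprdx1, an interaction of 0.64 ± 0.11 (edgeR adjusted p = 0.00421). Of the members that did not pass, Vcam1 was at -0.01 (-0.19 to 0.16) and Icam1 was at 0.04 (-0.12 to 0.20), adhesion molecules of the same pathway.

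The 76 higher genes can be sorted by their knockdown effects. Beside the 41 genes that were lower with knockdown after H2O2 alone, 26 were higher with knockdown after fluvastatin alone, among them Ifit3, Rsad2, Ifit1, Isg15, Cxcl1, Tnf, Neat1 and H1f2. Another 6, including Plk2, Atf3, Cxcl2 and Ccl7, passed in both conditions with opposite signs. Irf7 and Oasl2 were higher in both, and Smim3 passed in neither.

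Sorted by the fluvastatin effects instead, 43 of the 76 rose in both arms, 10 rose in siprdx1 and did not pass in siNC, and 13 fell in siNC and did not pass in siprdx1. A further 9 fell in siNC and rose in siprdx1, among them Fos, Ifit3, Rsad2, Ifit1, Isg15, Mx1 and Neat1. Rgs2 fell in both. Neat1, the long noncoding RNA that builds paraspeckles, measured 332, 359 and 364 CPM in siNC+H2O2 and 325, 278 and 318 CPM with fluvastatin. In siprdx1 it went from 362, 347 and 329.6 CPM to 467, 463 and 453 CPM. The H2O2 groups overlapped and the fluvastatin groups were clearly apart, for an interaction of 0.61 ± 0.08 (edgeR adjusted p = 0.000143). H1f2, a linker histone, rose in both arms, by 0.51 in siNC and 1.03 in siprdx1, an interaction of 0.51 ± 0.07 (edgeR adjusted p = 0.000228).

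The 31 genes with a more negative fluvastatin effect in siprdx1 included Fbn1, Pde3a, Ermp1, Slc38a2, Svep1, Fbn2 and Nid1. Of these, 10 rose with fluvastatin in siNC and fell in siprdx1, 9 rose in siNC and did not pass in siprdx1, and 8 fell in siprdx1 and did not pass in siNC. Knockdown was lower after fluvastatin alone for 21 of the 31. The count was the least stable result here. It was 24 without siNC+H2O2 replicate 2, 29 without siNC+H2O2+FV replicate 3, 53 without siprdx1+H2O2 replicate 2 and between 6 and 11 without any other single library.

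Fbn1, the gene of the microfibril protein fibrillin 1, had the smallest p of the lower genes. It measured 1015, 1038 and 1032 CPM in siNC+H2O2 and 1129, 1129 and 1123 CPM with fluvastatin. In siprdx1 it went from 1005, 977 and 965 CPM to 839, 867 and 849 CPM. Every fluvastatin library was above the H2O2 libraries in siNC and below them in siprdx1, with an interaction of -0.34 ± 0.06 (edgeR adjusted p = 0.00358). Reads of Fbn1 and its antisense partner Gm9913 cannot be told apart if the counting did not use strand.

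Pde3a, a cyclic nucleotide phosphodiesterase, measured 25.6, 26.1 and 27.5 CPM in siNC+H2O2 and 33.1, 34.8 and 33.6 CPM with fluvastatin. In siprdx1 it went from 28.9, 26.7 and 25.3 CPM to 22.3, 24.3 and 19.7 CPM. The H2O2 groups overlapped and the fluvastatin groups did not, for an interaction of -0.64 ± 0.11 (edgeR adjusted p = 0.00407). Slc38a2, a sodium-coupled transporter of neutral amino acids, went from 221, 229.9 and 206 CPM to 291, 273 and 251 CPM in siNC and from 272, 230.4 and 243 CPM to 214, 207 and 225 CPM in siprdx1. Its interaction was -0.52 ± 0.09 (edgeR adjusted p = 0.00526). Ermp1, an endoplasmic reticulum metallopeptidase, had an interaction of -0.48 ± 0.085 (edgeR adjusted p = 0.00513). Fbn1, Pde3a, Slc38a2 and Ermp1 passed without each of the 12 libraries in turn. With siprdx1+H2O2 replicate 3 as the 1 library of its group, Fbn1 (-0.31) and Pde3a (-0.55) did not pass.

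**Figure D4:**
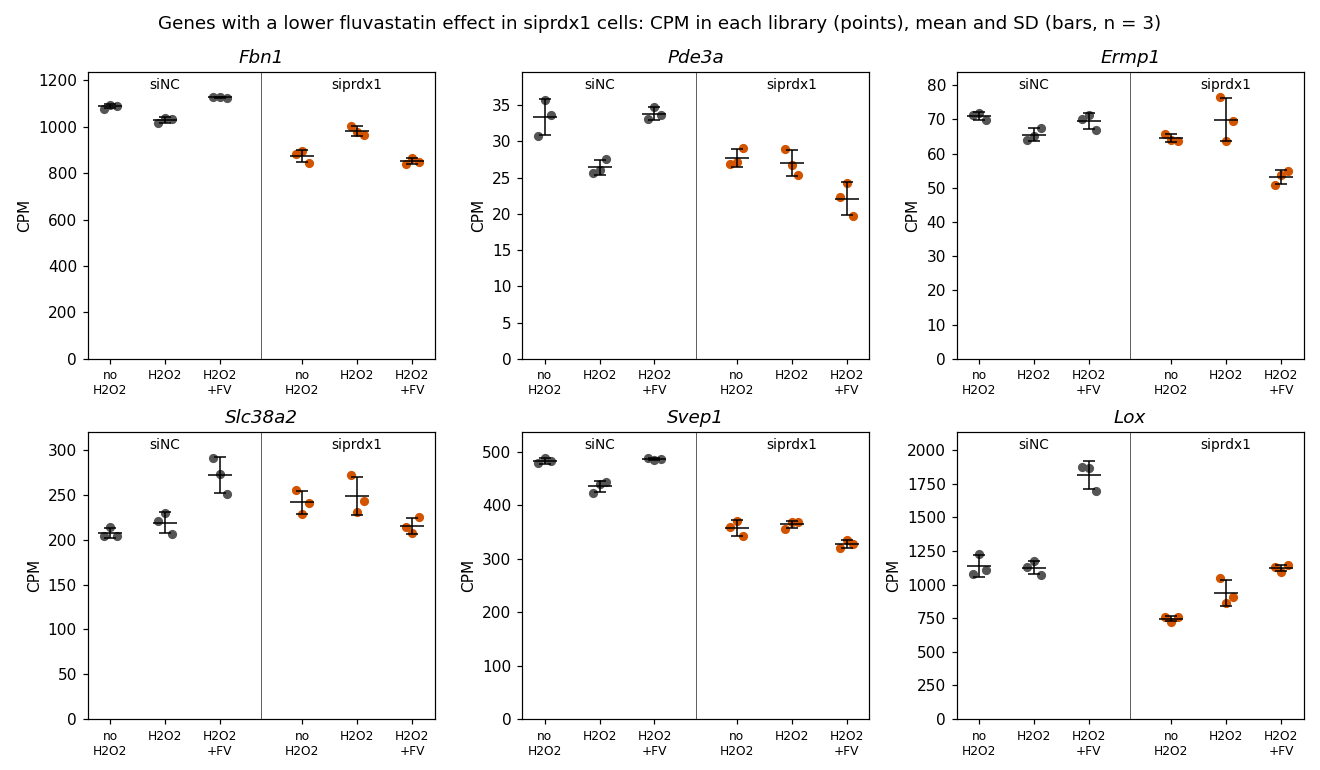
Each panel plots CPM per library for 1 gene with a more negative fluvastatin effect in siprdx1 (points), with the mean and SD of 3 libraries (bars), in grey for siNC and orange for siprdx1. The differences are small beside those of the higher genes, such as Fbn1 with 1129, 1129 and 1123 CPM for siNC against 839, 867 and 849 CPM for siprdx1 after fluvastatin.

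By edgeR the extracellular matrix list held 3 lower genes of 24 tested (12.5%), Fbn1, Lox and Thbs2, and 0 higher. Of all genes tested 0.189% were lower. Counting either direction, limma voom passed 4 members and DESeq2 passed 5 of the 22 with an adjusted p. A negative interaction was measured for 20 of the 24, with a median of -0.09. Over all 16432 genes, 8456 had a positive interaction and the median was 0.01. Lox, which encodes the collagen cross-linking enzyme lysyl oxidase, rose in both arms, by 0.69 in siNC and 0.26 in siprdx1, and was lower with knockdown in both treatments. Lox passed in 4 of 12 fits that left out 1 library and Thbs2 in 1 of 12. The fibrillar collagen gene Col1a1 gave -0.02 and the elastin gene Eln -0.08 (95% interval -0.26 to 0.10). Stromal markers moved in the same direction, with 9 of 11 negative, a median of -0.14 and 1 past the threshold, Pdgfra at -0.27. Pdgfra passed in 1 of 12 fits that left out 1 library. The summed level of the stromal markers was 4289 to 4418 CPM in siNC+H2O2 and 3984 to 4284 CPM in siNC+H2O2+FV. In the corresponding siprdx1 groups it was 4887 to 5494 CPM and 4250.1 to 4564 CPM. The part of stromal content in the matrix result was not tested.

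Transcript length and GC content differed with direction as well. The median annotated transcript length was 6978 bp for the 31 lower genes, 2596 bp for the 76 higher genes and 3055 bp over all tested, and the median GC content was 47.3%, 49.9% and 49.5%. The slope of log2 expression on GC content, per 10 percentage points, was -0.124 in siprdx1+H2O2 replicate 1 and 0.169 in replicate 2. With offsets for GC content and length, 97 of the 107 genes passed again, but the lower genes had smaller values. Their median interaction was -0.25 with the offsets and -0.40 without, and 14 of the 31 shrank by over 1.5 times. For the 76 higher genes the medians were 0.68 and 0.71, and 1 gene shrank by that much. With the offsets Fbn1 had -0.21, Pde3a -0.41 and Pdgfra -0.15.

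Lists of the mevalonate pathway and of peroxide enzymes held 0 genes past edgeR's threshold, a count near the 0.651% of all genes that passed. In the mevalonate and cholesterol synthesis list 0 of 21 tested members passed by edgeR, limma voom or DESeq2, 4 had an unadjusted p below 0.05, and the values ran from -0.23 to 0.27.

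Among 24 tested NRF2 targets, genes of the antioxidant and electrophile response, 0 passed by edgeR, limma voom or DESeq2. An unadjusted p below 0.05 was found for 6, and the median was 0.14. Knockdown was higher for 8 of the 24 after fluvastatin and for 5 after H2O2, where 1.62% and 0.901% of all genes rose. The summed level after fluvastatin was 20087 to 22088 CPM in siNC and 22209.5 to 23527 CPM in siprdx1. After H2O2 it overlapped, at 17173 to 18955 CPM and 16970.4 to 18837 CPM. Srxn1, the sulfiredoxin gene whose product repairs over-oxidised peroxiredoxins, rose from 235, 224 and 228 CPM to 687, 673 and 649 CPM in siNC. In siprdx1 it rose from 243, 223 and 234 CPM to 782, 757 and 779 CPM. The fluvastatin groups did not overlap, but the interaction of 0.18 (95% interval 0.04 to 0.31) did not pass (edgeR adjusted p = 0.246). Txnrd1, the cytosolic thioredoxin reductase gene, had -0.10 (95% interval -0.22 to 0.03) and the heme oxygenase gene Hmox1 -0.01 (95% interval -0.16 to 0.14).

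The other peroxiredoxins and peroxide enzymes held 0 of 23 by edgeR and limma voom (6 at an unadjusted p below 0.05) and 1 by DESeq2, with values from -0.16 to 0.37. The thioredoxin gene Txn1 was the highest, at 0.37 (edgeR adjusted p = 0.114). The list of SRF/MRTF targets and actin genes held 0 of 20 by all 3 tools (2 at an unadjusted edgeR p below 0.05), although fluvastatin raised 18 of them in siNC and 19 in siprdx1, where 13.5% and 12.6% of all genes rose. The steroid synthesis list held 0 of 21 by edgeR and limma voom (4 at an unadjusted p below 0.05) and 1 by DESeq2. Star, the carrier of cholesterol into mitochondria, rose from 193, 212 and 189.7 CPM to 492, 529.6 and 485 CPM in siNC. In siprdx1 it rose from 171, 171 and 177 CPM to 455, 449 and 469 CPM. Its interaction was 0.06 (95% interval -0.09 to 0.21).

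**Figure D5:**
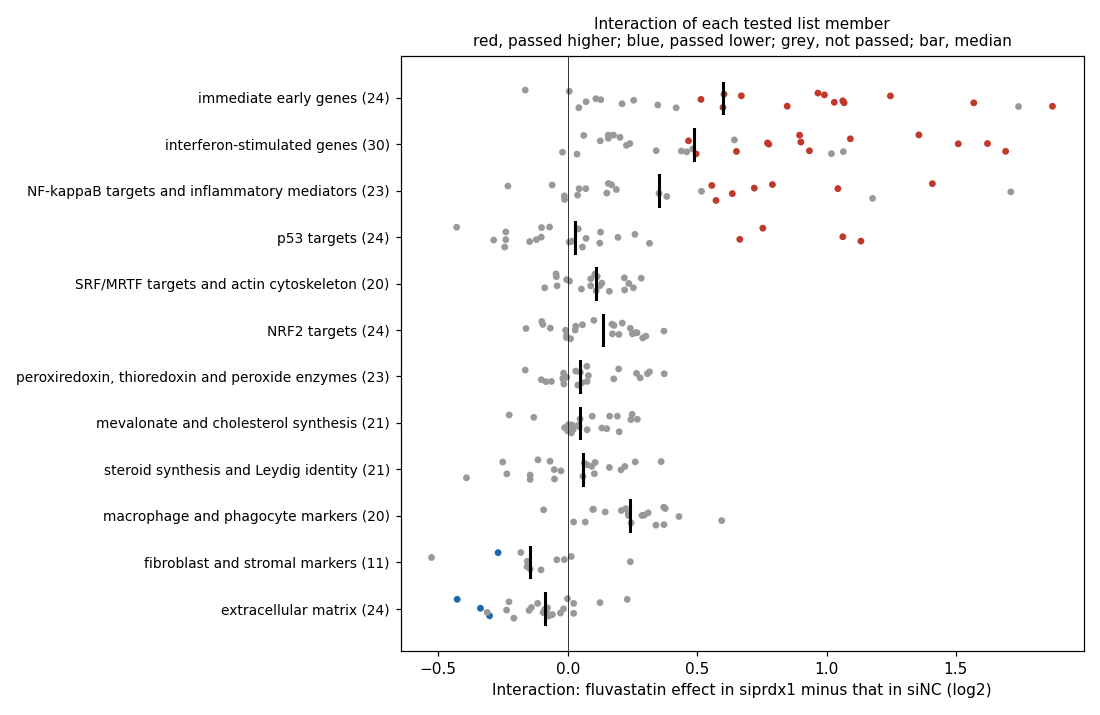
Each point is the log2 interaction of 1 tested gene in the list named on the left (number tested in brackets), red or blue where it passed edgeR's test as higher or lower and grey where it did not, and black bars are list medians. Red points lie in the immediate early (13 of 24), interferon-stimulated (13 of 30), NF-kappaB (7 of 23) and p53 (4 of 24) lists, blue points in the stromal and matrix lists, and all points of the other 6 lists drawn are grey. The plot shows 12 of the lists tested.

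Single members passed in several further lists. The p53 targets held 4 of 24 (16.7%), Btg2, Plk2, Plk3 and Gdf15, while 0.463% of all genes passed as higher. The median of the list, 0.03, was near that of all genes. Gdf15 passed in 2 of the 12 fits that left out 1 library. Plk3 no longer passed without siNC+H2O2 replicate 3 or siprdx1+H2O2 replicate 3. Heat shock chaperones held Dnajb1 and Hspb1, and Hspb1 may share reads with near copies (99.8% identity). Hspb1 passed in 2 of the 12 fits that left out 1 library. The Kruppel-like factor Klf2, the GTPase-like gene Rnd1, the glucose transporter gene Slc2a1 and the inhibitory SMAD gene Smad7 were higher, and each of these 4 no longer passed in at least 5 of the 12 fits that left out 1 library. Integrated stress response genes held 0 of 26 by edgeR (5 at an unadjusted p below 0.05) and 2 by DESeq2. Endoplasmic reticulum chaperones held 0 of 20 by both tools (3 at an unadjusted p below 0.05).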

How the data were processed

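RNA-seq counts per gene were deposited by the authors as 1 table of 18 libraries. HISAT2, HTSeq and mm10 are named in the submitters' processing notes; versions, annotation and strand setting are not given in the sources used here. Libraries were poly(A)-selected, per the labels' protocols. Of the 55487 gene IDs, 55227 were found in GENCODE M21. Counts were tested in edgeR 4.0.16 (R 4.3.3) with TMM scaling, filterByExpr and robust quasi-likelihood fits over 18 libraries and 6 group means, which leaves 12 residual degrees of freedom. P-values were adjusted by Benjamini-Hochberg over all 16432 genes. Standard errors were derived from the F statistic. Alternatives used limma 3.58.1 (voom), DESeq2 1.42.0, other scaling, no filter, offsets, a replicate block and left-out libraries. The procedure was tested on simulated data.

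The members and lists were chosen with earlier results of these data known. Named genes were the 15 of smallest p in each direction with at least 1 CPM and no clone name, the 10 largest averaged fluvastatin rises and falls, up to 3 members of each list, and a fixed set. Other genes, among them Rgs1, Egr2, Irf7, Isg15, Mx1, Nfkbiz, Tnf, Ifit2, Vcam1, Icam1, Col1a1, Eln and Thbs1, were named after their values were seen. Some genes are not reported here. Near copies were transcripts at least 90% identical by blastn.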

Additional observations from a re-analysis of the deposited data

Results flagged for a closer look

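Every gene listed here passed edgeR's test of the interaction itself, which asks whether the fluvastatin effect differed between siprdx1 and siNC cells, and the values are log2 interactions. Of 52 such genes 36 were higher and 16 lower. Immediate early genes and their feedback regulators had interactions of Btg2 1.06, Arc 1.87, Fos 1.25, Fosb 1.57, Nr4a1 1.07, Atf3 1.03, Egr1 0.85, Jun 0.97, Ier2 0.99, Egr2 0.67, Dusp1 0.48. Interferon-stimulated genes had Ifit3 1.36, Rsad2 1.62, Ifit1 1.09, Irf7 0.50, Isg15 0.93, Mx1 1.69, Cxcl10 0.90. NF-kappaB targets had Cxcl2 1.41, Cxcl1 1.04, Ccl7 0.79, Nfkbiz 0.72, Tnf 0.64. The remaining higher genes had Plk2 1.13, Plk3 0.67, Ppp1r10 1.05, Dnajb1 0.72, Hspb1 0.44, Rgs1 1.47, Neat1 0.61, H1f2 0.51, Rhob 0.52, Rnd1 0.77, Klf2 0.62, Slc2a1 0.51, Smad7 0.48. The lower genes had Fbn1 -0.34, Pde3a -0.64, Ermp1 -0.48, Slc38a2 -0.52, Svep1 -0.32, Fbn2 -0.81, Nid1 -0.29, Ptpn14 -0.46, Itih5 -0.41, Tjp1 -0.35, Abca6 -0.48, Nbea -0.41, Lox -0.43, Slit2 -0.36, Pdgfra -0.27, Thbs2 -0.30. No gene among the 107 changed sign under any alternative that gave it an adjusted p. Passing was less stable than sign for the lower genes listed. Of 12 fits that left out 1 library, Pdgfra and Thbs2 passed in 1, Tjp1 and Slit2 in 3, and Abca6 and Lox in 4. Itih5 and Nbea passed in 5, Ptpn14 in 8, Svep1 and Fbn2 in 10, and Nid1 in 11. Fbn1, Pde3a, Ermp1 and Slc38a2 passed in all 12.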

How the results depend on the processing

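The median standard error was 0.148 on the log2 scale. Replicates of a group differed by more than counting error, so depth alone did not set it. Chi-square per degree of freedom was 2.74 to 17.1 over the 18 libraries and 3.38 to 17.1 over the 12 compared. Of the 107 genes, 48 passed without any single library. In every refit that gave them an adjusted p, 34 passed, and DESeq2 gave an adjusted p to 80 of the 107. The minimum log2 change of 1 is not part of this count. Against 76 higher and 31 lower genes, no filter on low counts gave 168 and 113, GC and length offsets 200 and 137, and these offsets with a replicate block 255 and 223. Lower genes numbered 14 in the 12 libraries alone and 103 in DESeq2. A replicate block gave 12 lower genes in 12 libraries and 92 higher and 37 lower in 18. A minimum log2 change of 1 left 20 higher, 0 lower, 664 averaged, 585 siNC and 681 siprdx1 genes. Leaving out 1 library gave 49 to 83 higher and 6 to 53 lower genes. It gave 5018 to 5766 genes for the fluvastatin effect averaged over both arms, 3096 to 4388 for the fluvastatin effect in siNC and 3117 to 3852 for the fluvastatin effect in siprdx1. Leaving 1 library in siprdx1+H2O2 (replicates 1 and 2 out, chosen after seeing the data), with the spread taken from the other groups, gave 38 higher, 4 lower and 2432 siprdx1 genes past the threshold. The cause was not tested.

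Same-numbered libraries deviated together in siNC+H2O2 and siNC+H2O2+FV (correlations 0.244 to 0.513), while siprdx1+H2O2 and siprdx1+H2O2+FV gave 0.03 to 0.544 and other pairs reached -0.362, so the numbers were not taken as pairs. The replicate block passed 84 genes in 12 libraries and 129 in 18, of which 73 and 102 were among the 107.

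Sign changes were found for genes that did not pass. Leaving out 1 library gave Nr4a3 -0.13 to 0.21, Fosl1 -0.10 to 0.12, Ppp1r3c -0.24 to 0.38, Zkscan4 -0.38 to 0.002, Adamts15 -0.26 to 0.084, Tfap4 -0.065 to 0.25, Hmox1 -0.055 to 0.032, Slc7a11 -0.20 to 0.002, Hmgcs1 -0.096 to 0.087, Sqle -0.02 to 0.05 and Insl3 -0.24 to 0.46. GC and length offsets, without and with the replicate block, gave Fosl1 -0.127 and -0.128, Tfap4 -0.019 and -0.017, Slc7a11 0.081 and 0.081, and Hmgcs1 0.034 and 0.034. Without siprdx1+H2O2 replicates 1 and 2 the values were Fosl1 -0.009, Eid3 0.27, Adamts15 0.13, Hmgcs1 0.007, Sqle -0.015 and Insl3 -0.034.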
